A study of Nematostella vectensis with 4 samples.

Results

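In mesentery cells sorted from adult sea anemones, Nematostella vectensis, 127 of 25729 gene models were abundant in every library and nearly level across muscle and non-muscle fractions. They were chosen by 2 conditions on CPM, which are read counts scaled to a common library size, here by the trimmed mean of M-values (TMM). A member had at least 200 CPM in all 4 libraries, and its highest CPM was at most 1.5 times its lowest. The first condition alone left 416 gene models, of which the 127 members were 30.5%. Both conditions use the measured values of all 4 libraries, so level and evenness are given below as descriptions. Model estimates for members are likewise descriptive, since they rest on the same libraries, and nothing is concluded from them.

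Mesenteries are folds of the inner body wall that reach into the gut cavity of an anemone. Besides retractor muscle, which shortens the animal, they carry digestive, stinging and reproductive cells. Transcripts found at high and similar levels in unlike cell types are commonly called housekeeping transcripts, and many encode machinery that all cells use, such as parts of the ribosome or of the respiratory chain. Such transcripts also serve as internal references for scaling. Whether any member belongs to these classes cannot be said here: the count table gives NVE identifiers without names, and 0 of the 127 members matched the RefSeq gene table of assembly jaNemVect1.1. No function is therefore attached to any identifier, and no sequence is shown.

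The groups were mesentery muscle, with 2 libraries, and mesentery non muscle, also with 2. All came from adults carrying the MHC::mCherry transgene, in which regulatory sequence of the myosin heavy chain drives a red fluorescent protein. Per the labels' protocols, mesenteries of 8 adults, without their distal-most tissue, were dissociated and sorted by fluorescence, and the mCherry+ sort was read as muscle and the mCherry- sort as non-muscle from the wording of the design. The design text applies the number 8 to transgenic lines, so whether it counts animals or lines is uncertain. How many animals entered each duplicate is not given, so the spread between replicates may be partly technical, and replicate numbers follow accession order. Muscle markers could not be looked up without gene names, so the labels were not checked against them. In sorted bulk RNA, fewer cells of a type and less RNA per cell cannot be told apart.

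Depth was ample for every member. Total counts were 34876467 and 53424952 in the muscle libraries and 31813772 and 67102862 in the non-muscle libraries. The lowest count of any member in any library was 5392 and the highest 466062. Members together held 8.09% and 8.91% of the counts of muscle replicates 1 and 2, and 14.2% and 13.9% of those of non-muscle replicates 1 and 2. Their mean share was thus 8.50% ± 0.58 in muscle and 14.1% ± 0.2 in non-muscle (SD, n = 2 each). The widest Wilson 95% interval of these 4 shares extended 0.0121 percentage points each way, which covers counting error only.

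The members differed widely in level. Mean CPM over the 4 libraries ran from 224 to 4618, with a median of 665 and quartiles of 413 and 991. There were 44 members under 500 CPM, 51 from 500 to 1000 CPM, 25 from 1000 to 2000 CPM and 7 above. The most abundant members held more than an even part of the counts. The 10 highest of the 127 held 26.6% and 25.2% of all member counts in the muscle libraries. In the non-muscle libraries they held 26.4% and 28.7%.

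**Figure D1:**
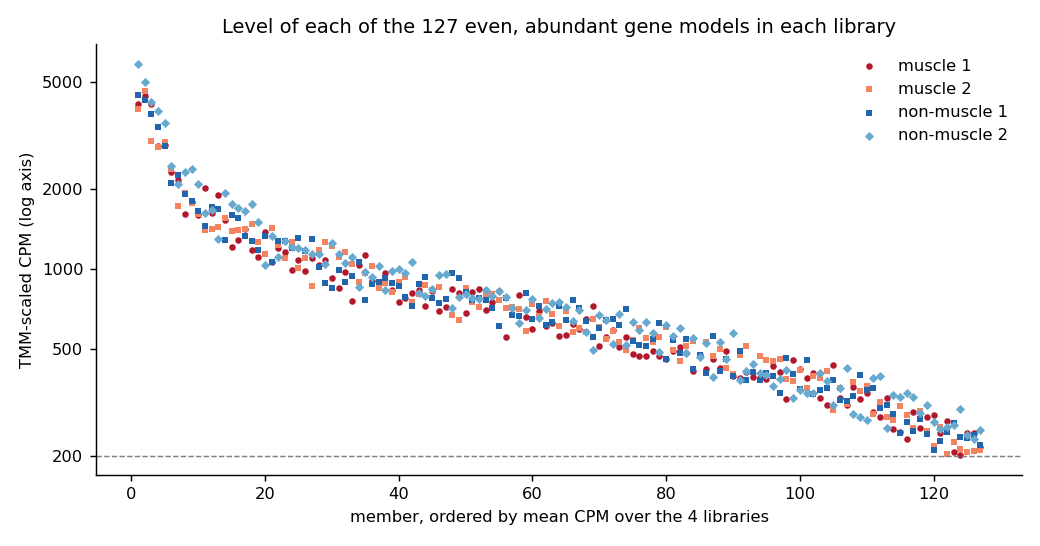
TMM-scaled CPM (log axis) of each of the 127 members in the 4 libraries, with members ordered by mean CPM and 1 point per library; the dashed line is the minimum of 200 CPM. The 4 points of a member lie within a factor of 1.5, while levels fall from a mean of 4618 to 224 CPM along the axis.

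The 5 most abundant members are given by library, where the rule itself keeps the values of each within 1.5-fold. NVE12094 had 4149 and 3963 CPM in the muscle libraries, against 4474 and 5884 CPM in the non-muscle libraries. NVE12172 had 4434 and 4663 CPM in muscle and 4309 and 5034 CPM in non-muscle. NVE1567 had 4147 and 3009 CPM in muscle and 3816 and 4214 CPM in non-muscle. The muscle and non-muscle values overlapped for NVE12172 and NVE1567, whereas both muscle values of NVE12094 lay below both non-muscle values. NVE22048 likewise did not overlap, at 2894 and 2871 CPM in muscle against 3417 and 3905 CPM in non-muscle. NVE3046 did overlap, with 2919 and 2998 CPM in muscle and 2898 and 3521 CPM in non-muscle. Under TMM, non-muscle replicate 2 was the highest library for all 5.

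Few members had nearly the same value in all 4 libraries. The ratio of highest to lowest CPM had a median of 1.31, and it was at most 1.1 in 5 members, at most 1.2 in 35 and at most 1.3 in 60. The most even was NVE9318, with 476 and 475 CPM in muscle and 477 and 467 CPM in non-muscle, a ratio of 1.02. NVE12879 followed with 715 and 723 CPM in muscle and 674 and 716 CPM in non-muscle (ratio 1.07). NVE3732 had 828 and 834 CPM in muscle and 781 and 843 CPM in non-muscle (ratio 1.08). The other members at or under 1.1 were NVE799 and NVE8203 (both 1.09), named after their values were seen.

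At the other end, members shade into non-members without a gap. NVE3785 was included with a ratio of 1.4995, having 1522 and 1552 CPM in muscle and 1284 and 1926 CPM in non-muscle, and NVE23054 was included at 1.4993. Its highest and lowest values were 1298 CPM in non-muscle replicate 1 and 866 CPM in muscle replicate 2. The nearest gene models past the limit were NVE21257 (ratio 1.51), NVE8280 and NVE21313 (both 1.52). For level, the lowest values of members were 201 CPM in NVE9633, 203 CPM in NVE15859 and 206 CPM in NVE11247. The nearest even gene models under the minimum were NVE10289, NVE12339 and NVE15469, with lowest values of 178, 174 and 174 CPM.

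Within these limits the median member lay slightly lower in muscle, by an amount that depended on the libraries compared. The log2 ratio of mean CPM, muscle over non-muscle, had a median of -0.08 over members and ran from -0.37 to 0.39, where the rule itself allowed at most 0.58 either way. Over all gene models tested the median was -0.02. Without muscle replicate 2 the members' median was -0.19, and without non-muscle replicate 2 it was -0.021. For these 2 values the TMM factors were recomputed on the libraries left, so rescaling enters them as well. By single libraries, the median ran from -0.17 for muscle replicate 1 over non-muscle replicate 2 to 0.006 for muscle replicate 2 over non-muscle replicate 1, where no lean was left. From the fraction means, the log2 ratio was below 0 in 85 members and above 0 in 42. Both muscle libraries lay below both non-muscle libraries in 30 members and above them in 8, and in the remaining 89 the fractions overlapped. Across all 17994 gene models tested, both muscle libraries lay below in 37.6% and above in 37.9%. Since the rule used this contrast, nothing is read from the lower shares among members.

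The members farthest from level between fractions still lay within the limit that the rule sets. NVE8649 had the highest log2 ratio, 0.39, with 726 and 649 CPM in muscle against 556 and 496 CPM in non-muscle. NVE4890 came next at 0.28, with 1078 and 1263 CPM in muscle and 887 and 1044 CPM in non-muscle. Both muscle libraries exceeded both non-muscle libraries in each of these 2 members. NVE9633 had the lowest log2 ratio, -0.37, with 201 and 212 CPM in muscle against 234 and 299 CPM in non-muscle. NVE7739 stood at the same log2 ratio, -0.37, with 292 and 286 CPM in muscle and 358 and 390 CPM in non-muscle.

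**Figure D2:**
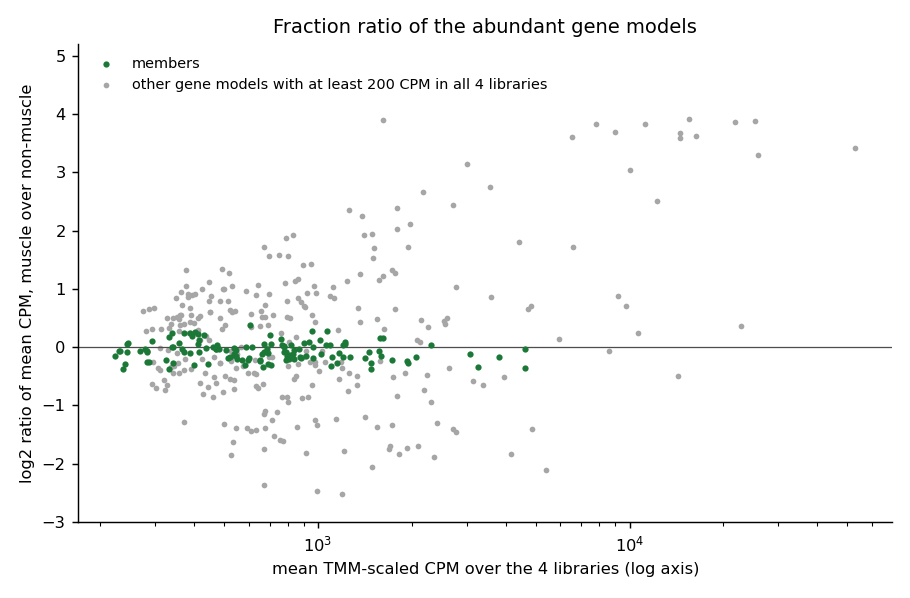
Log2 ratio of mean CPM, muscle over non-muscle, against mean CPM over the 4 libraries (log axis) for the 416 gene models with at least 200 CPM in every library. The 127 members (green) form a band from -0.37 to 0.39 around 0, while the other 289 (grey) run from -2.52 to 3.91.

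By the edgeR quasi-likelihood test fitted across all gene models (Benjamini-Hochberg adjusted p under 0.05), 0 of the 127 members were called, where 45.3% of the 17994 gene models tested were. At an unadjusted p under 0.05 edgeR also gave 0, and DESeq2 called 0 at an adjusted p under 0.05. The rule excludes large differences on these same libraries, so the counts follow in part from the choice of members and test nothing about them. Not being called does not show equality. The standard error of a member's log2 fold change ran from 0.29 to 0.32, and the 95% interval reached a median of 0.66 to either side. That interval stayed within 1 on the log2 scale, a 2-fold difference, in 121 members. The rule keeps the estimates near 0, so this count also follows in part from the choice of members and shows no equality. For NVE9318, the most even member, the log2 fold change was 0.02 with a standard error of 0.29.

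Among members, libraries of the same fraction differed about as much as the fractions did. The absolute log2 ratio of replicate 1 to replicate 2 had a median of 0.18 in muscle and 0.21 in non-muscle, against 0.13 for the absolute log2 ratio of the fraction means, which average 2 libraries each. In the 289 other abundant gene models, which missed the ratio limit, these medians were 0.36, 0.41 and 0.70. In 100 members the difference between fraction means was smaller than the larger of the 2 replicate differences. The ratio limit bounds both kinds of difference among members. The count also sets a difference of means against the larger of 2 single differences, which favours a high count. It is not given for other gene models, so nothing is concluded from it. At these depths, counting alone gives a replicate log2 ratio a standard error with a median of 0.014 in muscle and 0.011 in non-muscle. The widest were NVE95 in muscle (437 and 296 CPM) and NVE3785 in non-muscle (1284 and 1926 CPM).

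Which library was highest most often depended in part on the scaling. Under TMM, non-muscle replicate 2 held the highest CPM in 58 members, against 25 for non-muscle replicate 1, 21 for muscle replicate 1 and 23 for muscle replicate 2. Muscle replicate 1 was the lowest library in 49 members, muscle replicate 2 in 29, non-muscle replicate 1 in 28 and non-muscle replicate 2 in 21. Non-muscle replicate 2 was also highest most often with RLE (63 members), upper-quartile (49) and TMMwsp (53) factors, and with TMM after filtering (55). With totals that leave out the 50 most abundant gene models, non-muscle replicate 1 was highest in 61 members and non-muscle replicate 2 in 29. Under plain totals these numbers were 71 and 56. Muscle replicate 1 was the lowest library most often under each of the 7 scalings run, in 42 to 96 members. On the TMM scale, the median member stood 0.09 above its own mean on the log2 scale in non-muscle replicate 2 and 0.07 below it in muscle replicate 1, with the other libraries within 0.02 of it.

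The replicate ratios of the fractions tended to go the same way. Under TMM, in 62 members replicate 2 was higher than replicate 1 in both fractions, in 27 it was lower in both, and in 38 the fractions went opposite ways. NVE4488, chosen after its values were seen, had 460 and 609 CPM in muscle and 460 and 617 CPM in non-muscle. NVE23963, chosen likewise, had 928 and 1221 CPM in muscle and 848 and 1254 CPM in non-muscle. Both tracked the replicate number and not the fraction. Across the 127 members the log2 ratios of replicate 1 to 2 in muscle and in non-muscle gave Pearson's r as 0.37 and Spearman's rho as 0.37. The same r was 0.45 over the 289 other abundant gene models and 0.38 over 4766 less abundant ones with a mean of at least 10 CPM. This correlation was thus not particular to members. Replicate 2 was higher in both fractions in 101 of those 289 and lower in both in 88. In the 4766 these numbers were 1452 and 1406, so by this count the lean to replicate 2 was less marked outside the members. In non-muscle alone, the median log2 ratio of replicate 1 to 2 was close in both sets, at -0.119 in members and -0.096 in the 289. In muscle it was -0.056 in members and 0.056 in the 289. The cause of the lean was not tested. The 2 replicate ratios had the same sign in 70.1% of members, 65.4% of the 289 and 60.0% of the 4766. All points share the same 4 libraries, and gene models are not independent. Replicates numbered 1 carry library numbers 20953 and 20954 and those numbered 2 carry 20955 and 20956, but the labels do not say what neighbouring numbers share. The edgeR fit has no term for them.

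**Figure D3:**
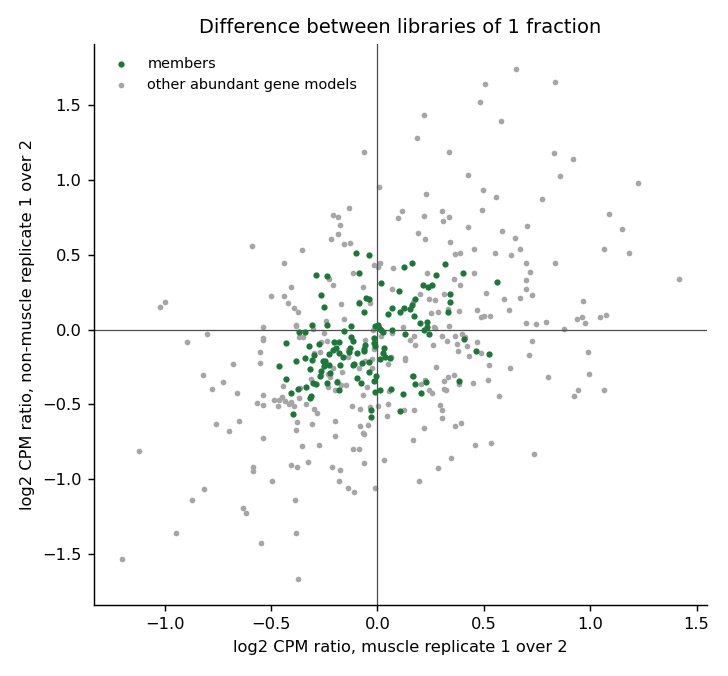
Log2 CPM ratio of replicate 1 to replicate 2 in muscle (horizontal) against the same ratio in non-muscle (vertical), 1 point per gene model, for the 127 members (green) and the 289 other abundant gene models (grey). Members lie between -0.46 and 0.56 in muscle and between -0.58 and 0.52 in non-muscle, with 62 at the lower left of the origin and 27 at the upper right. Of the other abundant gene models, 101 lie at the lower left and 88 at the upper right.

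The evenness of the members holds on the TMM scale and not on the scale of plain library totals. As plain shares of the library, all 127 members were lower in both muscle libraries than in both non-muscle libraries, which was true of 53.6% of gene models tested. Their median log2 ratio on that scale was -0.71, against -0.65 for the median tested gene model. Under plain totals 7 members kept a ratio of at most 1.5. On that scale 48 members were called lower in muscle and 0 higher by edgeR, where 38.2% of tested gene models were called lower. The description as evenly shared therefore holds relative to the bulk of gene models, as TMM sets it. Absolute levels per cell cannot be derived from these counts, which come without an RNA yield or spike-in.

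**Figure D4:**
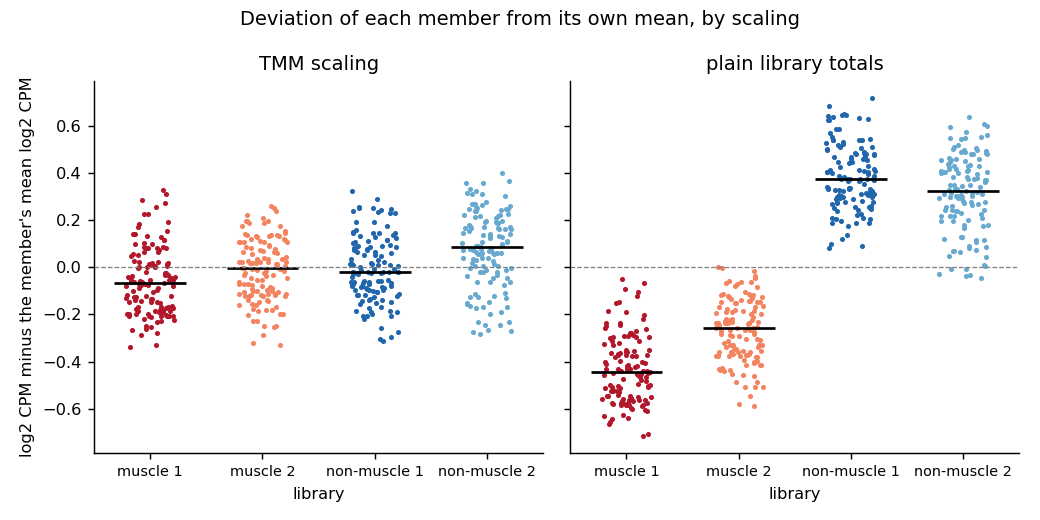
Log2 CPM of each member in each library minus the member's own mean over the 4 libraries, with TMM scaling (left) and plain library totals (right); points are the 127 members and bars their medians. Under TMM the medians lie between -0.07 and 0.09, whereas under plain totals both muscle libraries lie low and both non-muscle libraries high.

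The 7 members level on both scales were NVE4890, NVE7446, NVE19863, NVE8649, NVE25935, NVE13181 and NVE8204, all named after their values were seen. All 7 leaned towards muscle under TMM, with log2 ratios of 0.21 to 0.39, and their plain log2 ratios were -0.43 to -0.26. These directions follow from the choice. Plain totals lower the muscle over non-muscle ratio of every gene model relative to TMM, so being level on both scales places it above 0 under TMM. NVE13181 was the tightest of them within fractions, with 422 and 420 CPM in muscle against 356 and 352 CPM in non-muscle. Applied to plain totals from the start, the rule gave 54 gene models, 7 of them members. Under TMM, 11 of these 54 were called higher in muscle by edgeR and 0 lower, with a median log2 ratio of 0.63. Of all gene models tested, 23.7% were called higher and 21.6% lower. The median and the lack of lower calls follow from the same difference between the scales, so nothing is read from them.

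Position within a library does not depend on scaling. The best-placed member ranked 30 and 28 among all gene models in the muscle libraries, and 14 and 13 in the non-muscle libraries. The median member ranked 263 and 238 in muscle, and 220 and 228 in non-muscle. NVE12172, for example, ranked 30 and 28 in muscle and 16 and 15 in non-muscle, with TMM-scaled means of 4549 ± 162 CPM in muscle and 4671 ± 513 CPM in non-muscle (SD, n = 2 each). In 56 members (44.1%) both muscle ranks were lower down the list than both non-muscle ranks, and in 6 (4.7%) the reverse held. Among all gene models tested the first was true of 39% and the second of 36.9%. Ranks rest on the same counts as the rule, so nothing is read from these shares.

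Even gene models were most frequent at moderately high levels. Of all gene models with a mean of 400 to 800 CPM, 26.6% had a ratio of at most 1.5, and of those with 800 to 1600 CPM, 33.0%. The share was 13.4% above 1600 CPM (11 of 82) and 12.4% at 200 to 400 CPM, and between 11.3% and 15.1% in the classes from 10 to 200 CPM. The median ratio was 1.85 at 800 to 1600 CPM and 2.99 above that. By edgeR, 34.9% of gene models at 800 to 1600 CPM and 56.1% of those above 1600 CPM were called between the fractions. The higher share at 400 to 1600 CPM was present with RLE factors, at 26.3% and 32.4%. It was absent under plain totals, at 8.33% and 7.69%.

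**Figure D5:**
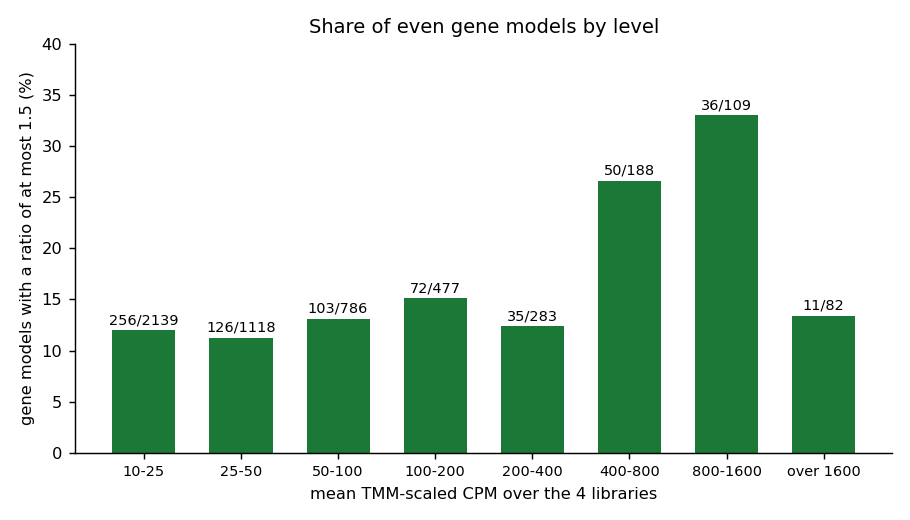
Percentage of gene models whose highest CPM over the 4 libraries was at most 1.5 times the lowest, by class of mean TMM-scaled CPM, with the number of such gene models over the number in the class above each bar. The classes from 400 to 800 and from 800 to 1600 CPM stand at 26.6% and 33.0%, the others between 11.3% and 15.1%.

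Within the members, the fraction ratio shifted little with level. The median log2 ratio, muscle over non-muscle, was -0.03 in the 44 members under 500 CPM, -0.11 in the 51 from 500 to 1000 CPM and -0.14 in the 32 above. It was below 0 in 27 of the 44, in 36 of the 51 and in 22 of the 32. Under TMM, non-muscle replicate 2 was the highest library in 15 of the 44, in 24 of the 51 and in 19 of the 32.

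The 289 gene models that passed the CPM minimum and missed the ratio limit were less even by construction, with a median ratio of 2.17 and a highest ratio of 34.5. They also reached higher levels, with a median mean CPM of 784 and a highest of 53125, against 665 and 4618 for members. They held 66.3% ± 1.3 of the counts in muscle and 48.3% ± 1.0 in non-muscle (SD, n = 2 each), opposite in direction to the member share. All remaining gene models held 25.2% ± 0.8 in muscle and 37.6% ± 1.2 in non-muscle, in the same direction as the members. TMM factors were lower in muscle than in non-muscle, so the lower muscle share of members follows from their evenness under TMM. By edgeR, 75 of the 289 were called higher in muscle, 46 lower and 168 were not called. Of those 168, 119 had fraction means within 1.5-fold of each other, and in 84 the replicates of a fraction were more than 1.5-fold apart. Being uncalled was thus a weaker condition than belonging to the members.

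The number in the identifier was not used by the rule. Only NVE8203 and NVE8204 were members with consecutive numbers, with 821 and 751 CPM in muscle and 766 and 782 CPM in non-muscle for NVE8203. NVE8204 had 407 and 399 CPM in muscle and 339 and 343 CPM in non-muscle. Having a consecutive partner within the set was thus found for 1.57% of members and for 7.69% of the 416 abundant gene models, a larger set in which partners are more likely. Gene models next in number to a member were called about as often as any other. Of 212 such neighbours tested, 49 were higher and 49 lower in muscle by edgeR, together 46.2%, beside 45.3% overall. Their median absolute log2 fold change was 0.97, against 1.03 for all gene models tested. What the order of the numbers stands for is not stated in the table or the labels.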

How the data were processed

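The authors deposited raw read counts per gene model, 1 column per library, for 2 muscle and 2 non-muscle libraries. Per the submitters' processing notes, cutadapt and TopHat were used. How reads were counted (tool, strand), which build was used and where the gene models came from is not given in the sources used here, and values of gene models with near-identical copies or overlapping partners are uncertain. Per the labels' protocols, a polyA-selecting kit was used. All 4 columns were mapped to samples by library number, and 0 rows lacked a gene model.

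TMM factors (0.770 and 0.837 for muscle, 1.31 and 1.18 for non-muscle) were computed on all rows with edgeR 4.0.16 in R 4.3.3, and CPM followed. The edgeR quasi-likelihood test used filterByExpr by fraction (minimum count 10, minimum total 15), a robust fit with fraction as the only term, and Benjamini-Hochberg adjustment over 17994 gene models. All 127 members passed this filter. A standard error is the log2 fold change divided by the square root of F. DESeq2 1.42.0 was an alternative. Identifiers were looked up in every identifier column of the RefSeq table, where 0 of 25729 matched. Gene lists by function and markers were therefore not tested. The members and the rules below were chosen with earlier results of these data known.

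Named members are the 5 of highest mean CPM, the 3 of smallest and 3 of largest ratio, the 3 nearest the CPM minimum, and the 2 of highest and 2 of lowest log2 ratio, with 3 gene models just outside each limit. Others are marked as chosen after their values were seen. Alternatives were other scalings, thresholds and filters, DESeq2, and leaving out each library.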

Additional observations from a re-analysis of the deposited data

How the results depend on the processing

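The rule gave 124 to 128 gene models, against 127, with RLE, upper-quartile and TMMwsp factors, TMM after filtering, or totals without the 50 most abundant gene models. Under these 5 scalings 116 to 127 members stayed within the ratio limit, and their median log2 ratio, muscle over non-muscle, was between -0.13 and -0.07. Plain library totals gave 54 gene models and left 7 members within the limit. The median log2 ratio was then -0.71, 48 members were called lower in muscle, and the calls over all gene models were 2246 higher and 6873 lower, against 4262 and 3894. Requiring evenness on both scales, chosen after seeing the data, left 7 members. By construction, a ratio limit of 1.3 gave 60 members, with 3.84% of muscle and 6.12% of non-muscle counts, and a limit of 2 gave 248, with 20.5% and 32.2% and 9 consecutive identifiers. TMM factors were recomputed whenever a library was left out. With any 1 library left out, the rule gave 150 to 189 gene models, where 3 values are compared in place of 4. The median log2 ratio of the members was then between -0.19 (without muscle replicate 2) and -0.021 (without non-muscle replicate 2). Calls over all gene models ran from 2281 to 4561 higher and from 1406 to 4333 lower, lowest without muscle replicate 2, with 2442 lower without muscle replicate 1; the cause was not tested. No member was called by edgeR without any 1 library, with RLE factors or without the filter, or by DESeq2, which follows in part from the rule. A fraction left with 1 library is assumed to vary like the other. A fit with replicate pairs was not made: the labels give no replicate numbers, and numbers given in accession order do not pair libraries. The effect of neighbouring library numbers on the calls was therefore not tested.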
